A study of Mus musculus with 18 samples.

Results

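Of the growth factors known to keep motor neurons alive, Igf1, Igf2 and Fgf1 gave lower signals in the oculomotor nucleus than in cervical spinal cord, while Bdnf and its receptor gene Ntrk2 gave higher ones. These genes were examined together with Igf1r, Igfbp5, Vegfa and Cntf. Members were all probe sets of the array whose only gene symbol in the probe annotation was one of these 9 genes. That rule found 17 probe sets of 8 genes, among 22626 probe sets and 12393 genes with a probe set of their own. Of the 17, 15 probe sets, covering all 8 genes, passed the filter on low signals (mean log2 signal above the lowest 40% of probe sets, a signal of about 141). Both probe sets below it, Igf2 1415931_at and Igf1r 1452108_at, are described by their signals only. Cntf had no probe set of its own.

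RNA from mice was hybridised to 18 Affymetrix Mouse Expression Set 430A arrays. The 6 groups of 3 arrays were oculomotor nucleus and cervical spinal cord, each from mutant mice aged 6 weeks, control mice aged 10 weeks and mutant mice aged 10 weeks. The oculomotor nucleus moves the eyes and resists degeneration in amyotrophic lateral sclerosis (ALS), and the study set it against spinal cord, where motor neurons are lost. The labels describe all samples, controls included, as belonging to an ALS model, and name no mutation, transgene, strain or pooling of animals. No control aged 6 weeks was measured, so age and stage of disease cannot be told apart in the mutants. Control spinal cord replicate 1 was left out of every value below, since its correlation with the other arrays across probe sets was 0.0104 to 0.0143, against 0.957 to 0.985 among the other 17. That group therefore has n = 2 and the others n = 3. Nothing in the labels says that arrays stand for separate animals, so a p-value here reflects the spread among arrays, which may be technical, and precision is limited by how few they are.

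Marker genes matched the labelled regions, but the defining marker of oculomotor motor neurons was not above the filter. Summed over 7 genes on the array, the spinal Hox signal was 299 to 487 in oculomotor arrays and 6182 to 7519 in spinal cord arrays. Dopamine and serotonin neuron genes of the ventral midbrain, such as Th and Slc6a4, were high in oculomotor arrays, but Phox2a, which marks oculomotor motor neurons, read 33.4 to 84.6 in all 17 arrays, below the filter. Choroid plexus markers (4 genes on the array) summed to 7386 and 2597 on control oculomotor replicates 1 and 2 against 204 to 613 on the other 15 arrays, and pituitary hormone genes were high on control oculomotor replicate 3 and on oculomotor replicate 2 of the 10-week mutants.

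Insulin-like growth factors are secreted ligands that signal through the receptor tyrosine kinase encoded by Igf1r, and IGF-binding proteins hold them in the extracellular space and set how much reaches the receptor. BDNF acts on the receptor TrkB, the product of Ntrk2, FGF1 on the FGF receptors, VEGF-A on receptors of endothelial cells and neurons, and CNTF on a complex of CNTFR, LIFR and gp130. In the nervous system these factors come from different cells, among them meningeal and vascular cells, glia and neurons.

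To place the genes, the sequence directly upstream of the start is shown for Igf1, Igfbp5 and Ntrk2, the members with a called regional difference that have a single start in the RefSeq promoter table (build GRCm38.p6). Each run is the 250 bases before the start, read 5′ to 3′ on the strand of the gene, at chr10:87860861-87861110 (plus strand), chr1:72874866-72875115 (minus strand) and chr13:58806319-58806568 (plus strand). Capitals mark matches to any of 4 motifs, searched on either strand. The CCAAT box was searched as CCAAT. The GC box that binds the factor SP1 was searched as GGGCGG. For the core promoter element named after its letters, the TATA box, the search used TATAAA. For the site of the factor CREB, the cyclic AMP response element, it used TGACGTCA.
Igf1: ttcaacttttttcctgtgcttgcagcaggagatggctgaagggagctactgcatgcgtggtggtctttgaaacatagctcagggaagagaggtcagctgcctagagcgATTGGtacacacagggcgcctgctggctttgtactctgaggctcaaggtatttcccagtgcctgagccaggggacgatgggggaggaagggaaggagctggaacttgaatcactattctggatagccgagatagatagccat
Igfbp5: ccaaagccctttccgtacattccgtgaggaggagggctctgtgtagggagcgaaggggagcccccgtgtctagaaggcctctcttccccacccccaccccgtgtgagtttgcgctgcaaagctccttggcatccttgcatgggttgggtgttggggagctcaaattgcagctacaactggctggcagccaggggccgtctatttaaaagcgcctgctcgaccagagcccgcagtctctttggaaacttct
Ntrk2: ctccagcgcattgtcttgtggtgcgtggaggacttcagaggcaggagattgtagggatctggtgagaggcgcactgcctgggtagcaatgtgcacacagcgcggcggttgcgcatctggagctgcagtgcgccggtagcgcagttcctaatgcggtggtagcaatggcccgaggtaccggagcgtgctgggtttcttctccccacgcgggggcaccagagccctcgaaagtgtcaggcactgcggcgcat
The Igf1 run holds 1 match, a CCAAT box on the opposite strand, and the runs of Igfbp5 and Ntrk2 hold none; the Ntrk2 window has a GC box after the start, outside the printed run. Over 32851 windows of 300 bases in that table (250 before and 50 after a start), 37.4% held a CCAAT box, 35.7% a GC box, 13.6% a TATA box and 1.79% a cyclic AMP response element. G and C made up 52.3% of the Igf1 window, 56.3% of the Igfbp5 window and 61.3% of the Ntrk2 window, against a median of 52.7% over all windows. Bdnf has 7 starts in the table, Igf2 has 4 and Vegfa has 2, and the arrays do not show which start was used.

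Between the regions, a larger share of the members than of all probe sets was called. Members were chosen with earlier results of these data known, so their share beside the background is a description only. A probe set counts as called where limma gave it a Benjamini-Hochberg adjusted p under 0.05 over the 13575 tested, and differences are oculomotor nucleus minus spinal cord on the scale of log2(signal + 25), with their standard error (SE). In mutants aged 6 weeks, 11 of the 15 tested members were called, 5 higher and 6 lower, where the background over all tested probe sets was 23.9% (12.2% higher and 11.7% lower). With arrays centred on their medians, 39.7% of all calls there were higher, against 51.1%. In controls aged 10 weeks 8 members were called, 5 higher and 3 lower, against a background of 13.6% (6.62% higher and 6.94% lower). In mutants aged 10 weeks 9 were called, 3 higher and 6 lower, against 19.3% (9.30% higher and 9.99% lower). The median difference over the tested members was 0.23, 0.16 and 0.25 in these comparisons, and over all tested probe sets 0.03, 0.01 and 7.65e-04. For 6 of the 15 tested members (40%) the 9 oculomotor and the 8 spinal cord arrays did not overlap at all, which was so for 1191 of the 13575 tested probe sets (8.77%). Of the 15, 2 passed the filter only through the region where they are high, Igf1 1452014_a_at through spinal cord and Bdnf 1422168_a_at through the oculomotor nucleus, so that a difference was built into their passing. Of the other 13, 9, 7 and 7 were called, and the regions of 5 did not overlap. Probe sets of the same gene are not independent of each other, and the 3 comparisons use different arrays.

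**Figure D1:**
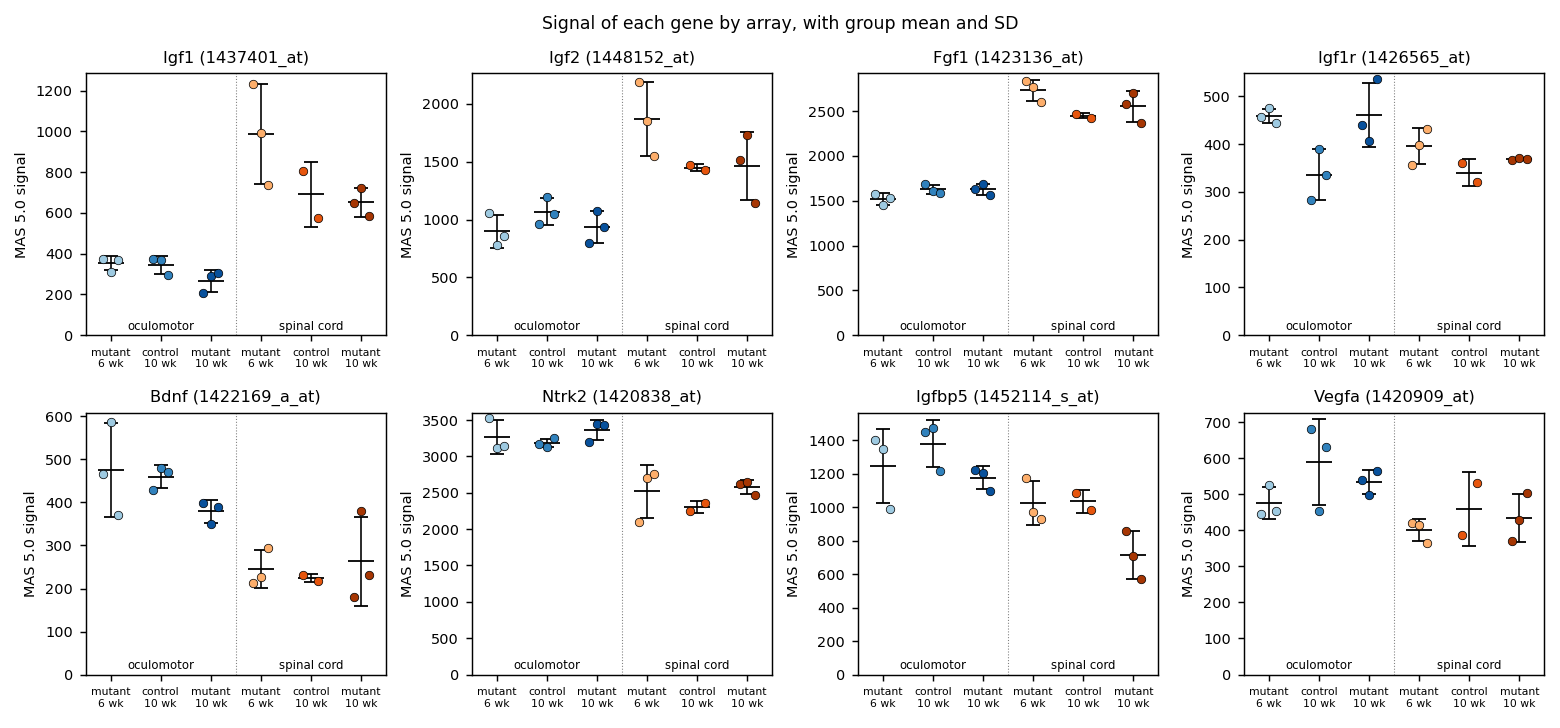
Signal (MAS 5.0, linear scale from 0) of the probe set with the highest mean signal for each of 8 genes, by group, with 1 point per array and the group mean and SD in black; oculomotor groups are blue and spinal cord groups orange. The Igf1 and Fgf1 points of the oculomotor nucleus lie below all spinal cord points, and the Ntrk2 points above them.

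Igf1 encodes the IGF ligand made both in liver and locally in nervous tissue, and it was lower in the oculomotor nucleus. At its brightest probe set, 1437401_at, oculomotor arrays of 6-week mutants read 375, 312.5 and 369.9 and spinal cord arrays 1231, 994 and 739. The controls read 372.5, 367 and 296 in the oculomotor nucleus and 804 and 577 in spinal cord, and the 10-week mutants 206, 288.5 and 305 against 649.5, 725 and 583. The highest oculomotor array lay at 375 and the lowest spinal cord array at 577, so the regions did not overlap in any condition. The log2 difference was -1.40 ± 0.18 (adjusted p = 1.29e-05) in 6-week mutants, or 2.64-fold lower in the oculomotor nucleus. It was -0.94 ± 0.20 (adjusted p = 0.0030) in controls, 1.92-fold lower, and -1.23 ± 0.18 (adjusted p = 6.42e-05) in 10-week mutants, 2.34-fold lower. Without control spinal cord replicate 2, which leaves 1 array in that group, the control value was -0.71 and no longer called (adjusted p = 0.0984).

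Both other Igf1 probe sets were dimmer, and also had called values in the mutants. Probe set 1419519_at ran from 159 to 211 in the oculomotor nucleus, with a median of 193, and from 233 to 354 in spinal cord, with a median of 277. Its differences were -0.63 ± 0.13 and -0.63 ± 0.13 in 6- and 10-week mutants (adjusted p = 0.0015 and 0.0017). Probe set 1452014_a_at ran from 93.3 to 173 and from 165 to 315, so that its regions overlapped slightly over all arrays, with -1.0 ± 0.19 and -0.90 ± 0.19 (adjusted p = 0.0010 and 0.0031). Its oculomotor group means, 7.19 to 7.37 on the log2 scale, lay below the filter limit of 7.38, so these values are given as a description only. In controls neither was called, at -0.31 ± 0.14 (adjusted p = 0.174) and -0.50 ± 0.22 (adjusted p = 0.141).

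Igf2, a fetal growth factor that in the adult brain is made mainly by meninges and choroid plexus, followed the same order in the mutants. Probe set 1448152_at read 1057, 780.0 and 858 in the oculomotor nucleus of 6-week mutants and 2193, 1855 and 1553 in spinal cord. In controls it read 964.5, 1193 and 1046 against 1468.5 and 1430.4, and in 10-week mutants 793, 1070.2 and 939 against 1518, 1728 and 1147. Within each condition the spinal cord arrays lay above the oculomotor arrays, although 1 oculomotor array of the controls (1193) exceeded 1 spinal cord array of the 10-week mutants (1147). The difference was -1.03 ± 0.16 (adjusted p = 9.39e-05) in 6-week mutants, 2.05-fold lower in the oculomotor nucleus, and -0.63 ± 0.16 (adjusted p = 0.0082) in 10-week mutants. In controls it was -0.44 ± 0.17 and not called (adjusted p = 0.11, 95% confidence interval -0.80 to -0.07), though it was called in a fit on the arrays of that comparison alone (adjusted p = 0.0352). Markers of choroid plexus, a source of Igf2, were high on 2 of the 3 control oculomotor arrays. Replicates 1, 2 and 3 had marker sums of 7386, 2597 and 572 and Igf2 signals of 964.5, 1193 and 1046. The part of choroid plexus in this value was not tested. Without oculomotor replicate 1 of the 10-week mutants the value of that group was -0.52 and not called (adjusted p = 0.0529). The other Igf2 probe set, 1415931_at, was dim, at 24.2 to 128 in the oculomotor nucleus and 41 to 127 in spinal cord, and its regions overlapped.

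In whole tissue, fewer cells of a type and less RNA per cell cannot be told apart, and markers of several cell types differed between the regions along with Igf1 and Igf2. The summed signal of 12 meningeal and fibroblast markers was 1718 to 2591 on oculomotor arrays and 4946 to 9060 on spinal cord arrays. Of the 9 markers tested, 9, 8 and 8 were called lower in the oculomotor nucleus in 6-week mutants, controls and 10-week mutants. Reactive astrocyte markers (7 genes) summed to 2832 to 4072 against 10915 to 14798, and microglial markers (10 genes) to 5235 to 6253 against 7464 to 11440. The part of these cells in the differences of Igf1, Igf2 and Fgf1 was not tested. Within spinal cord the meningeal sum was 8293 to 9060 in 6-week mutants, 6138 and 6610 in controls and 4946 to 6394 in 10-week mutants. The highest Igf1 1437401_at and Igf2 signals (1231 and 2193) were on arrays of 6-week mutants, but the highest of Igf1 1452014_a_at (315) was on an array of 10-week mutants. Among the 6-week spinal cord arrays replicate 1, with the highest sum (9060), read 1231 at Igf1 1437401_at and 2193 at Igf2 1448152_at. Replicate 2, with the lowest sum (8293), read 994 and 1855, and replicate 3, with a sum of 8583, read 739 and 1553.

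**Figure D2:**
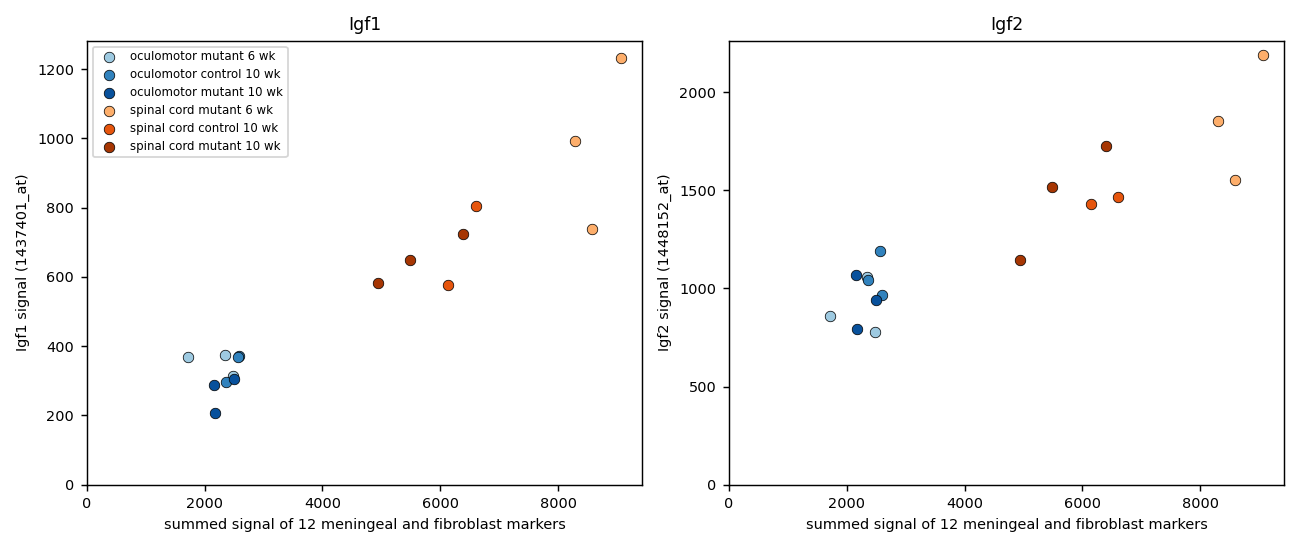
Signal of Igf1 (1437401_at) and Igf2 (1448152_at) on each of 17 arrays (vertical axes, MAS 5.0 signal) against the summed signal of 12 meningeal and fibroblast marker genes (horizontal axes), coloured by group. All oculomotor arrays lie at sums of 1718 to 2591, and spinal cord arrays at 4946 to 9060 with higher Igf1.

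Igf1r, the receptor gene, was not called between regions. Probe set 1426565_at ran from 284 to 535 in the oculomotor nucleus and from 320.3 to 431 in spinal cord, so the regions overlapped over all arrays. Within 6-week mutants they were apart, at 457, 475 and 445 against 356, 398 and 431, and within 10-week mutants too, at 439, 406 and 535 against 367, 371.5 and 368. Its differences were 0.21 ± 0.13, -0.02 ± 0.14 and 0.29 ± 0.13 in 6-week mutants, controls and 10-week mutants (adjusted p = 0.246, 0.937 and 0.1120). Their 95% confidence intervals were -0.05 to 0.47, -0.32 to 0.27 and 0.03 to 0.55. Probe set 1452108_at was below the filter, at 65.9 to 110.3 and 52.7 to 100.1.

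Igfbp5, a secreted binding protein that can hold IGFs in the matrix, had higher signals in the oculomotor nucleus, but its probe sets differed in the conditions where this was called. Probe set 1422313_a_at read 361, 322 and 253 in the oculomotor nucleus and 221, 177 and 222.5 in spinal cord of 6-week mutants. In controls it read 649, 601 and 549.7 against 257 and 268.5, and in 10-week mutants 329.7, 267 and 338 against 260.0, 304 and 214.5. The regions were apart in 6-week mutants and in controls, where the oculomotor signal was 2.17-fold higher, and overlapped in 10-week mutants. The differences were 0.53 ± 0.15 (adjusted p = 0.0137), 1.12 ± 0.17 (adjusted p = 1.30e-04) and 0.25 ± 0.15 (adjusted p = 0.262). The 6-week call was lost without oculomotor replicate 1 (adjusted p = 0.0669) or without spinal cord replicate 2 of that group (adjusted p = 0.0676).

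At the brighter Igfbp5 probe set, 1452114_s_at, the order was another. It read 1223, 1206 and 1097.5 in the oculomotor nucleus and 857, 709 and 572 in spinal cord of 10-week mutants, with no overlap and a called difference of 0.72 ± 0.14 (adjusted p = 0.0016). In 6-week mutants (1399, 1345 and 992 against 1172, 973.5 and 929) and in controls (1446, 1471.5 and 1218.5 against 1083 and 985) the values were 0.27 ± 0.14 and 0.40 ± 0.16, neither called (adjusted p = 0.194 and 0.111). Without oculomotor replicate 3 of the 6-week mutants their value was 0.42 and called (adjusted p = 0.0482). Over 17 arrays the log2 signals of both Igfbp5 probe sets had a Pearson correlation of 0.62, and their deviations from the group means 0.58, a description of arrays that share groups. All 6 Igfbp5 values in the comparison of regions were above 0.

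Fgf1, the acidic fibroblast growth factor, which lacks a signal peptide and is abundant in motor neurons, had the regional difference with the smallest standard error among the members. Probe set 1423136_at read 1571, 1449 and 1537 in the oculomotor nucleus of 6-week mutants and 2832, 2771 and 2604.5 in spinal cord. In controls the values were 1683, 1610.1 and 1591 against 2468 and 2427, and in 10-week mutants 1630.1, 1692 and 1569 against 2576.5, 2708 and 2374. The highest of 9 oculomotor arrays (1692) lay well below the lowest of 8 spinal cord arrays (2374). Differences were -0.84 ± 0.08 (adjusted p = 3.63e-07), -0.58 ± 0.09 (adjusted p = 1.53e-04) and -0.64 ± 0.08 (adjusted p = 1.15e-05), or 1.79-, 1.5- and 1.56-fold lower in the oculomotor nucleus. Motor neuron markers moved with it: 7 genes summed to 875 to 1042 on oculomotor and 2852 to 3385 on spinal cord arrays, with 4, 4 and 5 of 5 tested called lower. That list was not restricted to genes of spinal motor neurons. Oligodendrocyte markers (9 genes) summed to 62259 to 63701 against 62726 to 64621 in 6-week mutants, 36653 to 40064 against 56844 to 67824 in controls and 45760 to 51311 against 58435 to 74733 in 10-week mutants, with 5, 9 and 7 of 9 called lower. Schwann cell markers (3 genes on the array) summed to 4023 to 4919 against 6214 to 12132, with 2 of 3 called lower and 1 higher in each condition. The part of these cells in the Fgf1 and other regional differences was not tested.

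The second Fgf1 probe set, 1450869_at, was called lower in all 3 conditions as well. It ran from 1011 to 1429.8 in the oculomotor nucleus, with a median of 1174, and from 1552 to 2034 in spinal cord, with a median of 1882. Its differences were -0.56 ± 0.12, -0.68 ± 0.13 and -0.75 ± 0.12 (adjusted p = 0.0018, 0.0015 and 1.51e-04). Without both control oculomotor arrays with high choroid plexus markers, which leaves 1 array in that group, the control value was -0.45 and not called (adjusted p = 0.154). Both Fgf1 probe sets correlated at 0.87 over the arrays, while their deviations from the group means had a correlation of -0.18, so arrays of a group did not deviate together at both.

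Vegfa, which encodes the main growth factor of blood vessels, was not clearly different between regions. Probe set 1420909_at ran from 445 to 682 in the oculomotor nucleus and from 365 to 532.5 in spinal cord. Its differences were 0.23 ± 0.15, 0.34 ± 0.17 and 0.29 ± 0.15, none called (adjusted p = 0.28, 0.206 and 0.192). Probe set 1451959_a_at was called higher in 6-week mutants, at 380.1, 283 and 386 against 198, 279 and 256 and 0.48 ± 0.17 (adjusted p = 0.0491). That call lay at the threshold and was lost in 11 of the 13 other settings and on leaving out any of 11 of the 17 arrays. In controls and 10-week mutants this probe set had 0.16 ± 0.19 and -0.11 ± 0.17, not called. Sums of the endothelial list (7 genes) overlapped in 6-week mutants, at 3294 to 3383 in the oculomotor nucleus against 3122 to 3672. They were lower in the oculomotor nucleus in controls, at 3052 to 3444 against 3600 to 4050. In 10-week mutants they were also lower there, at 3385 to 3428 against 3577 to 3707. Of 7 tested genes, 1, 0 and 0 were called lower in these conditions. Their part in the Vegfa values was not tested.

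Bdnf encodes the neurotrophin that motor neurons respond to through TrkB, and its signals were higher in the oculomotor nucleus. Probe set 1422168_a_at read 220.5, 327 and 263 in 6-week oculomotor arrays and 119, 75.2 and 112 in spinal cord. In controls it read 294.5, 247 and 285 against 79.9 and 133, and in 10-week mutants 268, 314 and 269 against 87, 95.4 and 128. The lowest oculomotor array (220.5) was above the highest spinal cord array (133), but the spinal cord group means, 6.97 to 7.01 on the log2 scale, lay below the filter limit of 7.38. This probe set thus passed only through the oculomotor nucleus, and its differences of 1.22 ± 0.19 (adjusted p = 1.22e-04), 1.22 ± 0.21 (adjusted p = 5.90e-04) and 1.27 ± 0.19 (adjusted p = 9.20e-05) are a description, with spinal cord signals too dim for a reliable fold.

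Probe set 1422169_a_at of Bdnf, which passed the filter in both regions, was called higher in 6-week mutants and in controls. It read 467, 588 and 371.5 against 212, 227 and 294.5 in the former and 430.0, 479.9 and 470.0 against 231 and 218 in the latter, with 0.88 ± 0.20 (adjusted p = 0.0030) and 0.96 ± 0.22 (adjusted p = 0.0059). In 10-week mutants spinal cord replicate 2 read 379 beside 181 and 231 on the other arrays of its group, so that it overlapped the oculomotor arrays (398, 349.6 and 389). The difference there was 0.54 ± 0.20 (adjusted p = 0.0605), and 0.81 (adjusted p = 0.0036) without that array. It was also called on all 17 arrays with quantile normalization (adjusted p = 0.0453) and with median centring (adjusted p = 0.0391). The control call was lost without spinal cord replicate 3 (0.92, adjusted p = 0.0512) and without both control oculomotor arrays with high choroid plexus markers (0.99, adjusted p = 0.0924).

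Ntrk2, the gene of the BDNF receptor TrkB, was modestly higher in the oculomotor nucleus. Probe set 1420838_at ran from 3118.5 to 3532 on oculomotor arrays, with a median of 3204.5, and from 2095 to 2759 on spinal cord arrays, with a median of 2549, without overlap. The differences were 0.38 ± 0.10 (adjusted p = 0.0069), 0.46 ± 0.11 (adjusted p = 0.0062) and 0.38 ± 0.10 (adjusted p = 0.0088), or 1.3-, 1.38- and 1.3-fold. In controls the call was lost without spinal cord replicate 2 (0.43, adjusted p = 0.0806) and without both choroid plexus-rich oculomotor arrays (0.49, adjusted p = 0.0884). The dimmer probe set 1420837_at read 408, 526 and 607 against 145.5 and 269.7 in controls, and was called there, at 1.25 ± 0.29 (adjusted p = 0.0070), which was 0.85 (adjusted p = 0.182) without spinal cord replicate 2. In 6- and 10-week mutants it had 0.61 ± 0.26 and 0.63 ± 0.26, not called, but without oculomotor replicate 3 of the 6-week mutants their value was 0.90 and called (adjusted p = 0.02). Over all arrays the summed signals of 8 neuronal markers overlapped between the regions, at 35080 to 40192 and 37002 to 47684. In controls they were apart, at 35080 to 38289 in the oculomotor nucleus and 40408 to 44836 in spinal cord. Astrocyte markers (8 genes), a cell type that carries a truncated form of TrkB, summed to 21394 to 26917 and 25023 to 29871. Their sums were apart in controls (21394 to 22337 and 25023 to 28418) and in 10-week mutants (24379 to 26205 and 29287 to 29871). Of 8 astrocyte markers tested, 2, 1 and 1 were called higher and 4, 2 and 3 lower in 6-week mutants, controls and 10-week mutants.

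**Figure D3:**
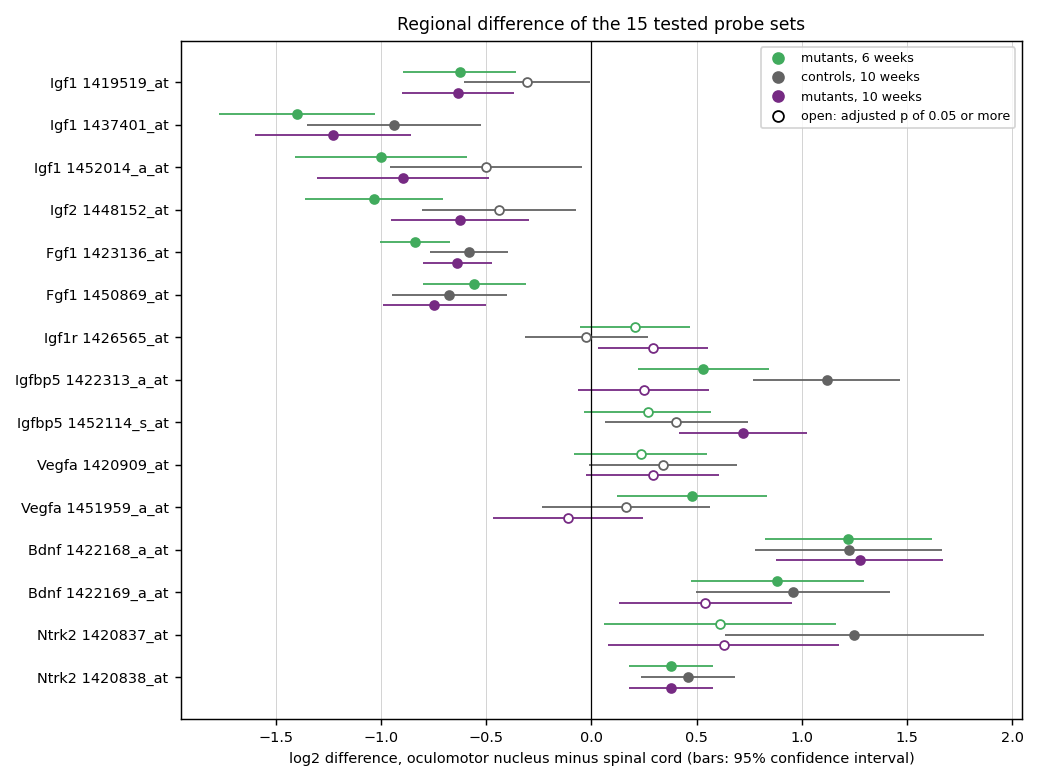
Difference between oculomotor nucleus and spinal cord (log2 scale, horizontal axis, with 95% confidence intervals) of the 15 tested probe sets in 6-week mutants (green), 10-week controls (grey) and 10-week mutants (purple); filled points have an adjusted p under 0.05. All points of Igf1, Igf2 and Fgf1 lie left of 0, and all points of Igfbp5, Bdnf and Ntrk2 to its right.

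Cntf, the gene of ciliary neurotrophic factor, could not be measured by itself. The probe set that lists it, 1422033_a_at, also lists Zfp91 and Gm44505, and is no member. Its signal was 122 to 238 in the oculomotor nucleus and 388 to 707 in spinal cord, with differences of -1.66, -1.16 and -1.26, all called lower. These values cannot be assigned to Cntf.

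With genotype, a single member was called. Of the 15 tested members, 1 was called lower in the oculomotor nucleus of 10-week mutants than in that of controls, where 1.47% of all tested probe sets were called and 0.435% called lower. In spinal cord 0 members were called by limma, against a background of 0.0221% (3 probe sets), with 2 members and 1595 probe sets at an unadjusted p under 0.05. The median member difference was -0.12 in the oculomotor nucleus and 0.06 in spinal cord.

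The called member was Igfbp5 1422313_a_at. It read 549.7 to 649 in control oculomotor arrays and 267 to 338 in those of 10-week mutants, without overlap, a difference of -0.90 ± 0.15 (adjusted p = 0.0051) or 1.86-fold lower in mutants. Oculomotor arrays of 6-week mutants (253 to 361) also lay below the controls. In spinal cord the value was -0.03 ± 0.17 (95% confidence interval -0.38 to 0.32), and the genotype by region difference was -0.87 ± 0.22 with an unadjusted p of 9.90e-04 and an adjusted p of 0.668. An unequal genotype effect in the regions was thus not shown once all probe sets were accounted for: 0 probe sets were called there (0%), 835 having an unadjusted p under 0.05. The brighter probe set 1452114_s_at was not called with genotype, at -0.22 ± 0.14 (adjusted p = 0.505) in the oculomotor nucleus and -0.54 ± 0.16 (adjusted p = 0.226) in spinal cord.

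Several marker sums also differed between oculomotor arrays of controls and of 10-week mutants, and not all of them did so between controls and 6-week mutants. Choroid plexus markers were high on control replicates 1 and 2, whose Igfbp5 signals were 649 and 601, and summed to 572 on replicate 3, whose Igfbp5 signal was 549.7. Without replicates 1 and 2 the difference was -0.78 and not called (adjusted p = 0.242), with 1 control array left and 7 probe sets called in all. With both pituitary-rich oculomotor arrays removed it was -0.86 (adjusted p = 0.0492). Oligodendrocyte markers (9 genes) summed to 36653 to 40064 in control oculomotor arrays and 45760 to 51311 in those of 10-week mutants, with 1 of 9 tested called higher in mutants. Midbrain markers (6 genes on the array) summed to 6705 to 7261 in controls and 8038 to 9813 in 10-week mutants, with 1 of 4 tested called higher. Astrocyte markers (8 genes) summed to 21394 to 22337 and 24379 to 26205, with 1 of 8 tested called higher. Microglial markers (10 genes) summed to 5235 to 5911 and 6031 to 6253, with 1 of 7 tested called higher. These are single genes of each list, where 1.47% of all tested probe sets were called. In oculomotor arrays of 6-week mutants the midbrain sums were 6187 to 8356 and the microglial sums 5846 to 6226, both overlapping the controls. Their oligodendrocyte sums (62259 to 63701) and astrocyte sums (23075 to 26917) lay above the controls. The part of these marker differences in the Igfbp5 value was not tested.

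**Figure D4:**
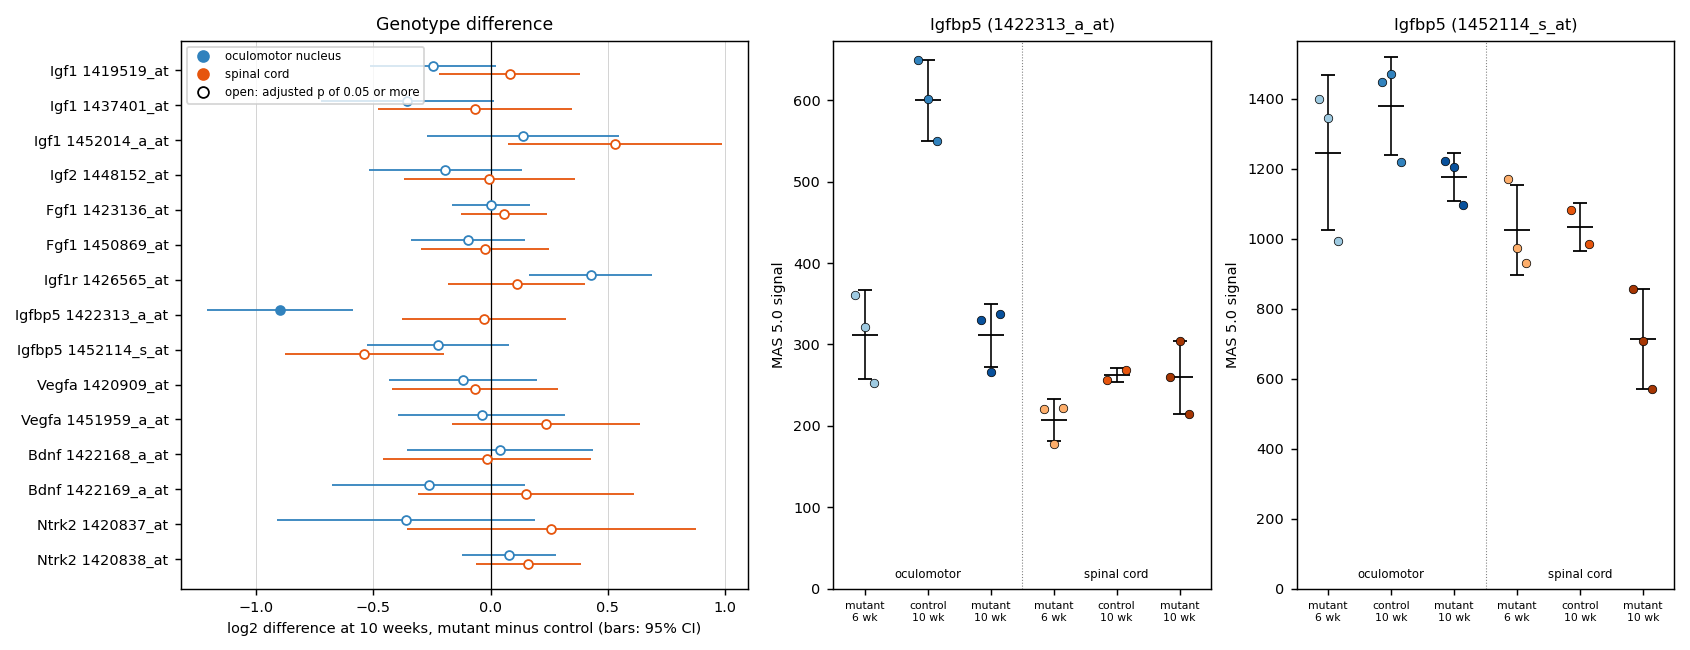
Left, mutant minus control difference at 10 weeks (log2 scale, with 95% confidence intervals) of the 15 tested probe sets in the oculomotor nucleus (blue) and spinal cord (orange), filled where the adjusted p is under 0.05; middle and right, signals of both Igfbp5 probe sets by array, with group mean and SD. The single filled point is Igfbp5 1422313_a_at, whose 3 control oculomotor arrays (549.7 to 649) lie above all others, while at 1452114_s_at the oculomotor groups overlap.

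In the oculomotor nucleus Igf1r 1426565_at had the next largest genotype value among the tested members. Controls read 284, 390.0 and 335 and 10-week mutants 439, 406 and 535, without overlap, and 6-week mutants 445 to 475. The difference was 0.43 ± 0.13 and missed the threshold (adjusted p = 0.0951). In spinal cord it was 0.11 ± 0.14 (adjusted p = 0.819). Igf1 1437401_at and 1419519_at had -0.36 ± 0.18 and -0.25 ± 0.13 in the oculomotor nucleus, also not called (adjusted p = 0.357 and 0.383). The dim Igf1 1452014_a_at had values of the other sign, 0.14 ± 0.19 there and 0.53 ± 0.22 in spinal cord, where mutant arrays lay above controls (adjusted p = 0.801 and 0.36). For Fgf1 1423136_at the genotype difference was 0.0015 ± 0.08 in the oculomotor nucleus (95% confidence interval -0.16 to 0.17) and 0.06 ± 0.09 in spinal cord (-0.13 to 0.24). The dim Bdnf 1422168_a_at had 0.04 ± 0.19 and -0.02 ± 0.21, with wider intervals of -0.36 to 0.43 and -0.46 to 0.43. The brighter Bdnf probe set, 1422169_a_at, read 430.0 to 479.9 in control and 349.6 to 398.3 in 10-week mutant oculomotor arrays, without overlap. In spinal cord it read 218 and 231 in controls and 181 to 379 in 10-week mutants. It was not called in either region. Both Ntrk2 and both Vegfa probe sets, and Igf2, were not called in either region.

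From 6 to 10 weeks in the mutants, limma called 0 of the 15 tested members in the oculomotor nucleus, in spinal cord or for the difference between them. The background was 0.0221% (3 probe sets), 2.76% (374) and 0.368% (50), with 64.7% and 38.0% of the calls higher in spinal cord and for the difference (30.2% and, for 18 of 20 calls, 90% with arrays centred on their medians), and 1, 4 and 2 members had an unadjusted p under 0.05. In spinal cord the members with the smallest p were Igfbp5 1452114_s_at, Vegfa 1451959_a_at and Igf1 1437401_at. Igfbp5 read 1172, 973.5 and 929 at 6 weeks and 857, 709 and 572 at 10 weeks, with no overlap and -0.52 ± 0.14 (adjusted p = 0.0589). Igf1 read 1231, 994 and 739 and 649.5, 725 and 583, also apart, with -0.56 ± 0.18 (adjusted p = 0.0937). Vegfa read 198, 279 and 256 and 374, 436 and 302, with 0.55 ± 0.17 (adjusted p = 0.0867). Igfbp5 came past the threshold on all 17 arrays with median centring (-0.60, adjusted p = 0.0292) and with a block for replicate number (-0.52, adjusted p = 0.0158). Both Igfbp5 and Igf1 did so when certain arrays were left out. Without oculomotor replicate 3 of the 6-week mutants the Igfbp5 adjusted p was 0.0406, and without spinal cord replicate 1 of the 10-week mutants 0.0444. Without spinal cord replicate 3 of the 6-week mutants the Igf1 value was -0.74 (adjusted p = 0.0448). Of 9 meningeal and fibroblast markers tested, 4 were called lower at 10 than at 6 weeks in spinal cord. Their part in the Igf1 value was not tested.

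The rest of each growth factor system was described by a list of genes, each represented by its brightest probe set, with the backgrounds given above. Of the IGF system, 12 of the 18 genes on the array were tested. The oculomotor nucleus had 1 of them called higher and 6 lower in 6-week mutants, 0 and 4 in controls, and 1 and 6 in 10-week mutants, with list medians of -0.42, -0.23 and -0.23. Besides Igf1 and Igf2 the lower genes were IGF-binding proteins. Igfbp6, which prefers IGF2, had -1.44, -1.98 and -1.31, all called. Igfbp4, an inhibitor of IGF action, had -1.49, -0.67 and -0.98, and Igfbp2 -0.69, -0.64 and -0.41, all called lower. Igfbp5 was the only tested binding protein of this list with a call in the other direction. Igf2r, which clears IGF2, was called higher in 6-week mutants (0.27), while Insr, Irs1 and Irs2 were not called between regions. No gene of the list was called with genotype or age.

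Of the neurotrophin system 5 genes were tested. Those called higher in the oculomotor nucleus numbered 3 in 6-week mutants and 3 in controls, with 0 lower, and in 10-week mutants 2 higher and 1 lower. Beside Bdnf and Ntrk2 the higher gene was Sorcs2, a sortilin-family receptor, at 0.45, 0.69 and 0.45. Sort1, which sorts BDNF within the cell, was called lower in 10-week mutants (-0.41), and Ntrk3, the gene of TrkC, was not called. List medians were 0.38, 0.46 and 0.38.

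Of 10 tested signalling genes of the CNTF and gp130 cytokines, 4 were called lower in the oculomotor nucleus in 6-week mutants, 3 in controls and 3 in 10-week mutants, and the others were not, except Cntfr, called higher in the last (0.59, adjusted p = 0.0496). Stat3, the transcription factor downstream, had -0.76, -0.58 and -0.61, Il6st, the gene of gp130, -0.70, -0.53 and -0.40, and Lifr -0.69, -0.62 and -0.64, all called. The kinase gene Jak1 was called lower in 6-week mutants (-0.61), and it fell by 0.51 from 6 to 10 weeks in mutant spinal cord. It was also the gene of this list called for the age by region difference (0.64, adjusted p = 0.0454). The list medians were -0.23, -0.17 and -0.10.

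In the FGF system 13 of 28 genes were tested. Fgfrl1, a receptor without a kinase domain, had -1.39, -1.30 and -1.47, and Fgf13, an intracellular FGF that binds sodium channels, 0.31, 0.53 and 0.46, all called. Fgfr2 was called lower in controls (-1.07) and in 10-week mutants (-0.96). Calls in this list numbered 2 higher and 3 lower, 1 and 3, and 1 and 4. From 6 to 10 weeks in mutant spinal cord, Fgf12 rose by 0.43 and Fgfr4 by 0.61. Of 7 tested VEGF genes, 2 were called in 6-week mutants (28.6%, near the background of 23.9%), Vegfb (0.40) and Nrp1 (-0.46), and none in the other conditions. None of 6 tested genes of the GDNF family was called in any of the 9 comparisons. Among 13 tested genes of PI3K and Akt signalling, the pathway below these receptors, 1, 0 and 2 were called (7.69%, 0% and 15.4%), shares under the backgrounds of 23.9%, 13.6% and 19.3%. They were Pik3r1 in 6-week mutants (-0.54) and Gsk3b (0.52) and Tsc1 (0.34) in 10-week mutants. Gsk3b was also higher in 10-week mutants than in controls in the oculomotor nucleus (0.74, adjusted p = 0.0276).

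**Figure D5:**
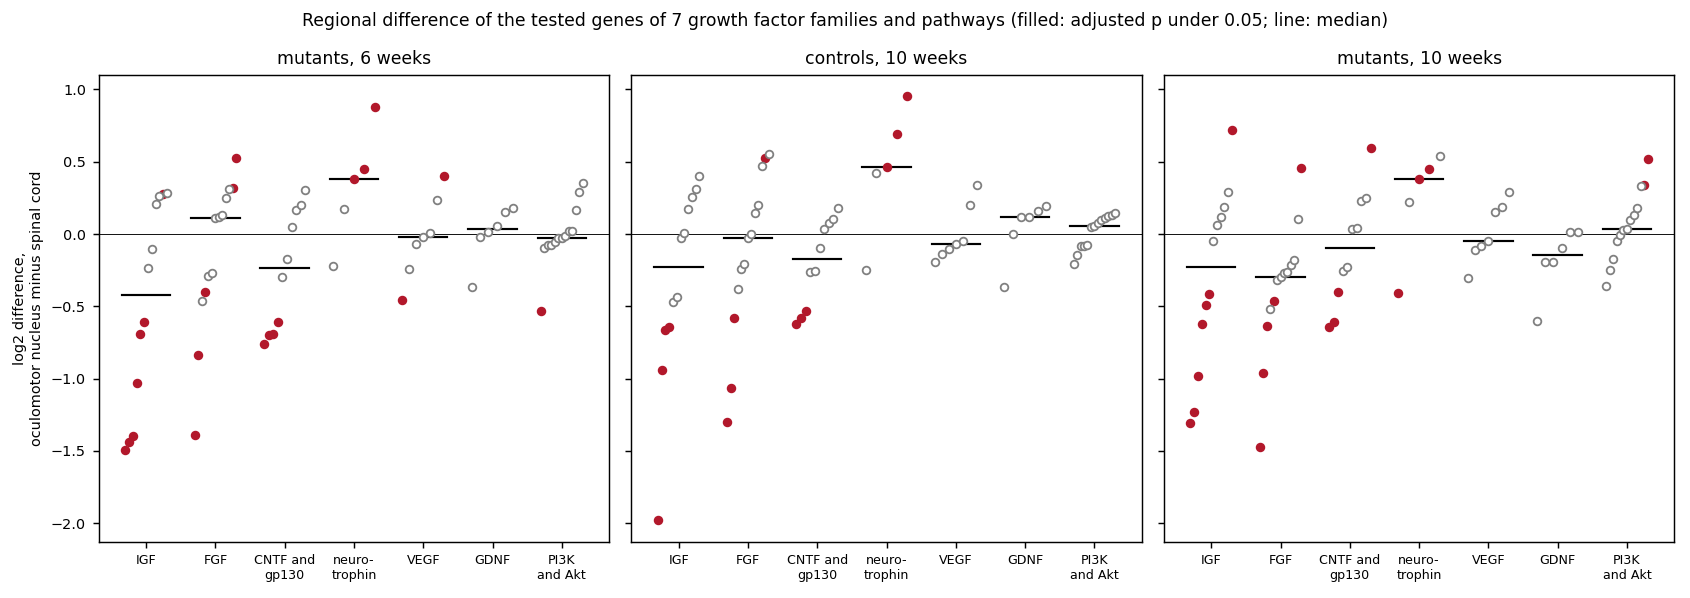
Difference between oculomotor nucleus and spinal cord (log2 scale) of each tested gene of 7 lists in 6-week mutants, 10-week controls and 10-week mutants; filled points have an adjusted p under 0.05 and the line is the list median. The IGF list holds filled points down to -1.98 (Igfbp6 in controls), and the GDNF list holds none.

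The probe sets whose log2 signals followed a member most closely over the 17 arrays are given as a description, since arrays share groups and regions. For Igf1 1437401_at they were Col1a2 (Pearson r = 0.95), a collagen gene, Scarb2 (0.95) and Bgn (0.94). For Igf1 1419519_at they were Col1a1, Unc5b and Col1a2 (0.93 each). For the dim Igf1 1452014_a_at, which passed the filter only through spinal cord, they were Sulf2 (0.92), Hspb1 (0.91) and Tesk2 (0.90), none of them a collagen gene. Igf2 was followed by Pcolce, a collagen-processing gene, by Papss1 and by Igf1 1437401_at itself (0.93 each). The nearest to Fgf1 1423136_at were A2m (0.99), Bgn (0.98) and Lgals1 (0.98), and to 1450869_at Gab1, Cdr2 and Hapln2 (0.95 each), so that the Fgf1 probe sets shared none of these genes. Bdnf 1422168_a_at, which passed the filter only through the oculomotor nucleus, was nearest to Nnat, Irx2 and Bex1 (0.96 each). Bdnf 1422169_a_at, which passed in both regions, was nearest to Nrarp (0.90), Pcdh10 (0.90) and Dlg3 (0.89). Ntrk2 1420838_at was nearest to Ndn (0.93), Usp11 (0.93) and Slc2a3 (0.91), and Igfbp5 1422313_a_at to Acsl4 (0.93), Kifc2 (0.92) and Zfp423 (0.91). Once group means were removed, these correlations were lower by differing amounts. They ran from 0.10 for Fgf1 1423136_at with Lgals1 to 0.86 for Fgf1 1450869_at with Gab1. Between these lay 0.34 for Fgf1 1423136_at with A2m, 0.48 for Igf1 1437401_at with Col1a2 and 0.71 for Igf2 with Igf1 1437401_at.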

How the data were processed

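Per the labels, biotin-labelled cRNA was hybridised to 430A arrays, and the deposited intensity values are signals from Microarray Suite 5.0 analysis, scaled per array by the authors; pooling of animals is not given in the sources used here. Of 22690 probe sets, 64 controls were removed. An offset of 25 was added, which understates fold changes of dim probe sets, log2 was taken without further normalization, and the lowest 40% by mean log2 signal (limit 7.38) were left out. Group means were fitted with limma 3.58.1 in R 4.3.3 (eBayes with trend, 11 residual degrees of freedom) and adjusted by Benjamini-Hochberg within each of 9 comparisons. The steps were tested on simulated data. Symbols came from the array's annotation, and names and promoter sequences from RefSeq tables of GRCm38.p6; windows of 8 of the 9 genes were used, and Fgf1 sequence was not used here.

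All member probe sets are named; of each list up to 4 genes with the smallest p in a comparison, and of each called member the 3 genes of most similar signal, could be named, and other genes named were chosen after their values were seen. Members and lists were chosen with earlier results of these data known. Alternatives were other normalizations, offsets, filters and thresholds, a fit without trend, a block for replicate number, all 18 arrays, 1 probe set for each gene, fits on the arrays of a comparison alone, and leaving out arrays. The fit without both choroid plexus-rich control arrays was added after seeing the data. Deviations of same-numbered arrays correlated weakly, at a median of 0.02 against -0.02 for other numbers.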

Additional observations from a re-analysis of the deposited data

How the results depend on the processing

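Counts of called members for the regional difference in 6-week mutants, controls and 10-week mutants, and for genotype in the oculomotor nucleus, were 11, 8, 9 and 1 of 15. With a filter of the lowest 60%, which left 9 members, they were 6, 5, 6 and 0. With 1 probe set per gene (8 members) they were 5, 4, 5 and 0. A pairwise rule asked for no overlap between the arrays of both groups and a mean difference over 2-fold, with no p-value. With a 2-fold threshold, and likewise under that pairwise rule, the counts were 3, 3, 2 and 0. With all 18 arrays they were 1, 2, 1 and 0, and the control value of Fgf1 1423136_at changed sign to 0.34, not called; the added array is the one whose signals did not correlate with any other. Without both control oculomotor arrays with high choroid plexus markers, the control and genotype counts were 5 and 0. Leaving out 1 array gave 5 to 8 called members in controls, with 5 without spinal cord replicate 2, and 0 to 1 for age in spinal cord. The age count in spinal cord was also 1 (Igfbp5 1452114_s_at) with median centring (adjusted p = 0.0292) and with a replicate block (adjusted p = 0.0158). Called members otherwise kept their direction in the settings tried, and the threshold settings lose calls by their construction.

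Replicate numbers paired the arrays weakly at most: over 40 same-numbered pairs, deviations correlated at -0.10 to 0.13 (median 0.02), with 6 pairs over 0.1. Over 80 pairs with other numbers they correlated at -0.16 to 0.16 (median -0.02), with 2 pairs over 0.1. The replicate block moved no other member count by over 1.5 times. Over all probe sets, the number called with genotype in the oculomotor nucleus (200) was 47 without oculomotor replicate 1 of the 10-week mutants and 341 without their spinal cord replicate 1. It was 392 with the arrays of the comparison alone, 118 with no filter, 62 with 1 probe set per gene, 57 without both pituitary-rich arrays and 7 without both choroid plexus-rich ones. For age in spinal cord (374) it was 42 with the arrays of the comparison alone, 237 with 1 probe set per gene and 86 without spinal cord replicate 2 of the 6-week mutants. Between regions in controls (1841) it was 876 without spinal cord replicate 2 and 565 without both choroid plexus-rich arrays. In 6-week mutants (3239) it was 2123 with 1 probe set per gene. The 2-fold threshold left 338, 269 and 267 regional calls, the pairwise rule 338, 277 and 271, and all 18 arrays 326, 310 and 203; for genotype in the oculomotor nucleus these gave 30, 35 and 1, and for age in spinal cord 22, 27 and 0. Genotype in spinal cord (3) ran from 0 to 51, age in the oculomotor nucleus (3) from 0 to 14, and age by region (50) from 0 to 48 where it moved by over 1.5 times or an array was left out. Signals of dim probe sets, such as Bdnf 1422168_a_at in spinal cord, limit the precision of their folds.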
